A study of Mus musculus with 18 samples.

Results

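The 6 libraries described here come from CD8 T cells cultured for 24 h without antigen, or with the antigenic peptide gp33 together with IC87114, an inhibitor of the delta isoform of phosphoinositide 3-kinase (PI3K delta). They are 6 of the 18 libraries of a bulk mRNA sequencing series and were chosen by their labels, 3 WT libraries without peptide and 3 WT libraries with gp33 and IC87114. The mice are P14 mice, whose transgenic T cell receptor recognises gp33, a peptide of lymphocytic choriomeningitis virus. Splenocytes, with the other spleen cells still present, were cultured with 2 cytokines, IL-2 (50 U/ml) and IL-12 (2 ng/ml), and CD8 T cells were sorted out only after the 24 h. The no-peptide cultures received the 2 cytokines alone. The third WT group, 3 libraries used here for side-by-side values, received gp33 at 100 ng/ml without inhibitor, and the inhibitor group received the same peptide dose with 10 µM IC87114. The other 9 libraries carry the label of a CD8-specific knockout of TrIP, the PI3K-inhibiting protein encoded by Pik3ip1, under the same 3 conditions.

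The design holds no culture with IC87114 alone and no readout of PI3K activity in these files, so how far PI3K delta was inhibited was not measured. The labels do not say whether replicates are separate animals, and p-values then measure only the spread between these libraries, which may be technical. Pik3ip1 was higher in the no-peptide libraries labelled KO (76.1 ± 2.36, SD, n = 3) than in those labelled WT (31.0 ± 2.43, SD, n = 3), so the genotypes are given as labelled. Whether the deleted part of the gene contributes to that value is not given in the sources used here.

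When a T cell receptor binds its peptide, several signalling branches open at once. Calcium and calcineurin activate NFAT, the RAS-ERK branch induces early response factors such as EGR1 and AP-1, protein kinase C activates NF-kB, and PI3K makes the lipid signal that recruits AKT. AKT keeps FOXO transcription factors out of the nucleus and feeds mTOR, and FOXO factors in resting T cells maintain genes of quiescence, survival and lymph node homing such as Klf2, S1pr1 and Il7r. PI3K delta is the isoform with the main role in lymphocytes, and IC87114 was among the first inhibitors selective for it.

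Values are the normalized expression values of the deposited table, printed per library as replicate 1, 2 and 3 after taking the values off the log scale. A gene was tested when its value reached 1 in at least 3 of the 18 libraries, which left 10257 of 23414 genes, of them 5800 protein-coding and 3352 processed pseudogenes. Fold changes are differences of mean log2(value + 1), a scale that understates the change of low genes, and a gene is called when its Benjamini-Hochberg adjusted p in limma, over all genes tested, is under 0.05. Unless another fit is named, each SE and p comes from the fit of all 18 libraries. Spread in groups not compared therefore enters them. Sequencing depth and whether values are per transcript length are not given in the sources used here, so no counting error is given and levels of different genes are not compared.

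All 6 libraries carried the markers of a CD8 T cell, but their level moved with the treatment. The summed level of 14 markers (Cd8a, Cd8b1, the CD3 chains, the receptor constant genes and others) was 2860.2 to 3051.5 without peptide, 1626 to 2878 with gp33 and IC87114 and 1183 to 1259 with gp33 alone. The inhibitor range thus reached that of no peptide. The median marker was at 5.40 log2 in inhibitor replicate 2, against 4.52 and 4.63 in replicates 1 and 3. Cd4 was near 0 in all 3 groups, with means of 0.0311, 0.00391 and 0.00580. Of 7 listed CD4 T cell markers 1 was tested, and it was called lower with gp33 and IC87114 (-1.08). The summed level of that list was 4.24 to 5.42 without peptide and 0.890 to 1.28 with gp33 and IC87114. Of 9 listed NK cell markers 3 were tested and 2 called lower, with list sums of 2.82 to 3.76 and 0.154 to 1.19. RNA of other cells was present in the libraries without peptide. The summed level of 16 B cell markers was 3256 to 7238 there and 149 to 199.0 with gp33 and IC87114. That of 9 MHC class II genes was 363 to 424 and 18.3 to 25.4. All 11 tested B cell markers and all 9 MHC class II genes were called lower, with Igkc, Cd79b, Ms4a1, H2-Aa and Cd74 among them, at list medians of -3.20 and -3.38 log2, where 33% of all tested genes were called lower. Myeloid and dendritic markers summed to 8.44 to 38.4 and 4.13 to 17.3, with 6 of 20 listed markers reaching the filter. Library makeup moved too. Without peptide, 56.3 to 57.5% of the summed values lay on processed pseudogenes and 6.11 to 6.68% on mitochondrial genes, and with gp33 and IC87114 these shares were 66.2 to 66.4% and 2.74 to 3.30%. Genes above 0 numbered 18935 to 19161 and 20159 to 20725. These shifts accompany every comparison with no peptide below. With gp33 alone the pseudogene and mitochondrial shares were 66.3 to 66.8% and 2.71 to 2.93%, near those of the inhibitor group. The CD8 marker sums of the peptide groups did not overlap. The part of such shifts in any result was not tested, and in bulk samples fewer cells of a type and less RNA per cell cannot be told apart.

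Replicate 2 of the inhibitor group, which carries the library letter F, stood apart from the other two of its group. Its correlation with replicates 1 and 3 across the tested genes was 0.960 and 0.962, against 0.996 between replicates 1 and 3. The median absolute log2 difference was 0.311 and 0.286 against 0.0794, and 1329 and 1264 genes were 1 or more log2 unit apart against 50. Results were therefore also computed without that library, and its larger effects on list counts, medians and calls are given below.

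**Figure D1:**
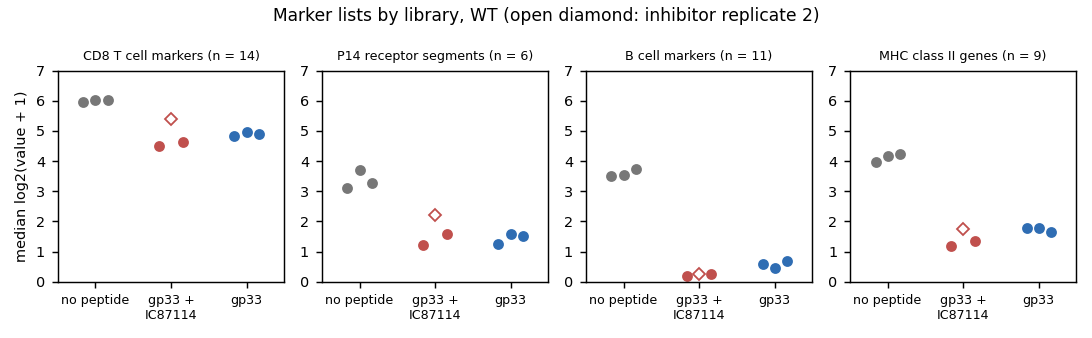
Median log2(value + 1) of the tested members of 4 marker lists in the 9 WT libraries, by treatment on the x axis; each point is 1 library and the open diamond is inhibitor replicate 2. B cell and MHC class II medians are high only in the no-peptide libraries, and inhibitor replicate 2 sits above its group in CD8 markers and receptor segments.

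A few promoters show the kind of short sequence that transcription factors read. Promoters were taken from RefSeq on GRCm38.p6, from 250 bases before to 50 bases after each gene's start, and both strands were searched for 5 short motifs, with no overlap between motifs in the promoters shown. Shown are those of called genes that changed here, with the matched letters in capitals: a FOXO motif in Txnip, chr3:96557707-96558006, and in Ypel3, chr7:126776713-126777012, the SREBP motif in Hmgcs1, chr13:119690101-119690400, and an E-box, the motif bound by MYC, in Nop2, chr6:125131633-125131932. All 4 are on the plus strand and read 5′ to 3′.
Txnip: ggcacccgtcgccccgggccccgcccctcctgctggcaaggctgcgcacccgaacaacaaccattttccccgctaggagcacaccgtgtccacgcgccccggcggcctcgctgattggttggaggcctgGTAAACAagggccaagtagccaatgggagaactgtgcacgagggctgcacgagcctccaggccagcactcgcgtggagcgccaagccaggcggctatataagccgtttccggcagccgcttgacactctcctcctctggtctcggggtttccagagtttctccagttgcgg
Ypel3: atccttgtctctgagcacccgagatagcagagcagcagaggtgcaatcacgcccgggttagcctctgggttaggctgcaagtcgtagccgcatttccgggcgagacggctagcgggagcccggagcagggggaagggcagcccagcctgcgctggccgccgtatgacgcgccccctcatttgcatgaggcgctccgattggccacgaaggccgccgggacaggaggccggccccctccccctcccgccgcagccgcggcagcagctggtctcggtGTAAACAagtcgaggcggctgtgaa
Hmgcs1: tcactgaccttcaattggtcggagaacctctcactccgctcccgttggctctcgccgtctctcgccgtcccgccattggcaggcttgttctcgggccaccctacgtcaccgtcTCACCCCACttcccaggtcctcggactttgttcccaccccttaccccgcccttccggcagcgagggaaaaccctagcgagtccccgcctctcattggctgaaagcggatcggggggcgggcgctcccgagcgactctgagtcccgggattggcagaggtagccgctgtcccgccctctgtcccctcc
Nop2: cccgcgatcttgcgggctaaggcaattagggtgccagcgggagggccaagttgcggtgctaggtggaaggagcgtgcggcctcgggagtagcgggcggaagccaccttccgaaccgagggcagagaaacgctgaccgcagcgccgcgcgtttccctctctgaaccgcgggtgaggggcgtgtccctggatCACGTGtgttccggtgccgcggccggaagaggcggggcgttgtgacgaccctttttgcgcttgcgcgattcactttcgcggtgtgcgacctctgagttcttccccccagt

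Counted over promoters of tested genes, of which a gene can have several, the FOXO motif GTAAACA was held by 4 of 21 promoters of FOXO and quiescence genes (19%, against 2.59% over all tested genes). The SREBP motif TCACNCCAC was in 1 of 19 of the cholesterol list (5.26%, against 1.09%), the NF-kB motif in 3 of 18 of the NF-kB list (16.7%, against 0.385%) and the E-box CACGTG in 6 of 37 of the ribosome biogenesis list (16.2%, against 10.6%). The AP-1 motif TGANTCA was in 0 of 22 of the receptor-induced factors (against 4.87%), which says only that these letters are not in those windows. A match is a description of these letters and not a bound site.

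With gp33 and IC87114, 7439 of the 10257 tested genes were called against no peptide, which is 72.5% of them. Of these, 4057 were higher (39.6%) and 3382 lower (33%), and 3317 (32.3%) differed by at least 1 log2 unit, 1872 higher (18.3%) and 1445 lower (14.1%). For 7201 genes (70.2%) the groups did not overlap, with the inhibitor libraries higher for 3914 (38.2%) and lower for 3287 (32%). The median log2 fold change over all tested genes was 0.10. Called genes are thus the majority, and the count of a gene group is read against these shares. They differed by kind of gene. Of 5800 protein-coding genes, 2249 were called higher and 2301 lower (median -0.0002). Of 3352 processed pseudogenes, 1626 were called higher and 487 lower (median 0.46). The share called lower was thus greater among protein-coding genes than over all tested genes. With gp33 alone, which shares the no-peptide libraries, 7558 genes (73.7%) were called, 4319 higher (42.1%) and 3239 lower (31.6%). The change with gp33 and IC87114 differed between the libraries labelled WT and KO for 723 genes (7.05%), 416 with the higher change in WT (4.06%) and 307 with the lower (2.99%), where protein-coding genes rescaled alone gave 763 calls and moved the share with the higher change from 57.5% to 46.8%.

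The inhibitor group was also set against gp33 alone, and 868 genes (8.46%) were called, 340 higher (3.31%) and 528 lower (5.15%) with IC87114, 80 of them (0.78%) by 1 log2 unit or more, 14 higher (0.136%) and 66 lower (0.643%). This count depended on which libraries were fitted. It was 433, 452 and 534 without replicates 1, 2 and 3 of the gp33 group, 940 without inhibitor replicate 2, and 263 from these 6 libraries alone. The share that was higher was 39.2% and became 65.8% when libraries were shifted to equal medians. A gene that this comparison calls is given below with that call only as a test of the inhibitor group's level against gp33 alone.

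**Figure D2:**
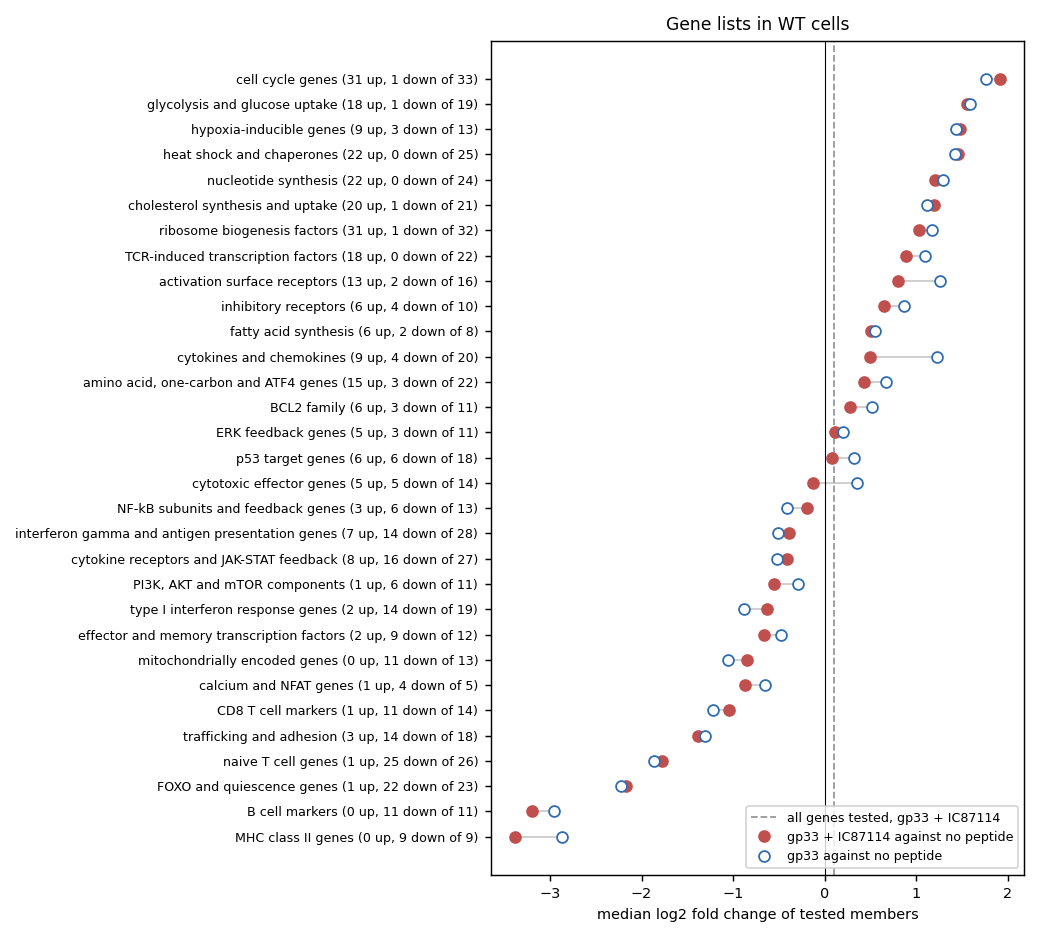
Median log2 fold change of the tested members of each gene list in libraries labelled WT, for gp33 + IC87114 against no peptide (filled) and gp33 against no peptide (open), which share the no-peptide libraries; counts in brackets are calls in the first. The dashed line is the median of all genes tested, 0.10, and the cytokine and cytotoxic lists show the widest gaps between the 2 symbols among lists of T cell function.

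Pik3ip1 itself, whose product TrIP restrains PI3K, was at 31.0, 33.4 and 28.5 without peptide, at 0.656, 0.616 and 0.624 with gp33 and IC87114, and at 0.863, 0.773 and 0.655 with gp33 alone. All 6 peptide-treated libraries lay far below the 3 without peptide. Its log2 fold change with the inhibitor was -4.29 (SE 0.08, limma adjusted p = 5.12e-15), it was -4.28 without inhibitor replicate 2, and the inhibitor group did not differ from gp33 alone past the threshold (-0.11, SE 0.08, limma adjusted p = 0.379).

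Genes of quiescence and of FOXO control fell as a group: 22 of 23 tested members (of 30 listed) were called lower and 1 higher, with a median of -2.17 log2. Klf2, a transcription factor that maintains quiescence and homing genes, read 42.3, 34.8 and 38.3 without peptide, 1.58, 1.62 and 1.57 with gp33 and IC87114, and 0.765, 0.818 and 0.540 with gp33 alone. The 3 groups did not overlap, and the inhibitor group was the middle one. Klf2 fell by 3.92 log2 units (SE 0.10, limma adjusted p = 1.39e-13) and remained 0.61 above gp33 alone (SE 0.10, limma adjusted p = 0.00113). Txnip, which restrains glucose uptake and whose promoter is printed above, read 122, 112 and 114 without peptide and 6.42, 6.51 and 5.58 with gp33 and IC87114 (-4.03, limma adjusted p = 1.39e-14). Ypel3, the other gene shown with a FOXO motif, went from 133, 129 and 134 to 6.54, 8.09 and 6.69 (-4.04, limma adjusted p = 1.04e-10) and was at 3.37, 3.48 and 3.61 with gp33 alone (0.85 above it with IC87114, limma adjusted p = 0.0117).

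Other members stood elsewhere relative to gp33 alone. Tsc22d3, the glucocorticoid-induced leucine zipper gene, fell by 4.16, and its level differed from gp33 alone by 0.03, which did not pass the test (limma adjusted p = 0.798). Il7r, the receptor chain for the survival cytokine IL-7, read 55.2, 38.1 and 47.1 without peptide, 0.292, 0.221 and 0.308 with the inhibitor and 0.986, 1.10 and 0.876 with gp33 alone. Its inhibitor libraries were the lowest of the 9 and lay below gp33 alone (-0.64, SE 0.12, limma adjusted p = 0.00349). Ccr7, the homing receptor for lymph nodes, was the exception of the list and was higher with gp33 and IC87114, at 238, 164 and 228 against 137, 124 and 126 (0.68, SE 0.15, limma adjusted p = 0.000729). Foxo1 (-0.94), the cell cycle inhibitor Cdkn1b (-2.17) and the antiproliferative genes Btg1 (-2.54) and Btg2 (-2.41) were among the members called lower.

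Of the genes that mark naive T cells, 25 of 26 tested were called lower and 1, Gimap5, higher by 0.27 (median -1.78), the latter not when these 6 libraries were fitted alone. Tcf7 and Lef1, transcription factors of naive and memory T cells, fell by 2.97 and 3.01. Cd7, a surface protein of T cells, had the greatest fall among the genes that the naming rule selects: it read 219, 247 and 238 without peptide, 1.57, 1.59 and 1.64 with the inhibitor and 1.07, 1.44 and 0.989 with gp33 alone (-6.50, SE 0.11, limma adjusted p = 2.55e-15). Ltb, which encodes lymphotoxin beta, fell by 4.90.

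Genes of trafficking and adhesion were mostly lower, 14 of 18 tested, with 3 higher (median -1.39). S1pr1, the receptor that lets T cells leave lymphoid tissue, read 279, 259.8 and 274 without peptide, 2.67, 2.07 and 2.55 with gp33 and IC87114, and 2.30, 1.87 and 2.66 with gp33 alone. The 2 peptide groups overlapped and both lay far below the libraries without peptide (-6.31, SE 0.11, limma adjusted p = 5.77e-15). The chemokine receptors Cxcr6 (-4.49) and Cxcr3 (-1.74) and the integrin chain Itga4 (-1.24) also fell.

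Surface receptors of activation rose in 13 of 16 tested members and fell in 2 (median 0.80, and 1.26 with gp33 alone). Tnfrsf9, the costimulatory receptor 4-1BB, went from 0.550, 0.422 and 0.360 to 28.9, 25.2 and 26.3 with gp33 and IC87114 and stood at 24.3, 24.1 and 24.5 with gp33 alone (4.27, SE 0.19, limma adjusted p = 6.14e-11). Every inhibitor library lay above every gp33 library, but the difference of 0.14 did not pass the test (limma adjusted p = 0.686). Il2ra, the high-affinity IL-2 receptor chain, rose by 3.19 to 10.6 ± 0.421 (SD, n = 3). Tnfrsf4, the receptor OX40, rose from 4.42, 0.623 and 0.884 to 75.4, 154 and 80.2. Replicate 2 was high, and the change of 5.27 was 4.95 without it.

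A part of that list did not reach the level of gp33 alone. Ly6a, the surface protein Sca-1, read 68.4, 55.9 and 71.1 without peptide, 88.6, 91.7 and 84.7 with gp33 and IC87114, and 451, 482 and 476 with gp33 alone. The 3 groups were separate, with the inhibitor group much closer to no peptide (0.44, SE 0.11, limma adjusted p = 0.00171, and -2.40 against gp33 alone, SE 0.11, limma adjusted p = 4.49e-09). Tfrc, the transferrin receptor, rose by 2.35 and was 0.82 below gp33 alone (limma adjusted p = 0.000214). Cd200 rose by 1.16 and was 0.83 below it (limma adjusted p = 3.7e-05).

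Transcription factors induced through the T cell receptor were called higher in 18 of 22 tested members and lower in none (median 0.88, and 1.10 with gp33 alone). The ERK-responsive Egr1 rose from 1.59, 0.710 and 2.65 to 8.98, 5.85 and 7.16 (1.70, SE 0.22, limma adjusted p = 6.03e-06). The nuclear receptor Nr4a1 rose from 0.117, 0.00263 and 0.198 to 2.54, 2.33 and 2.46 (1.64, SE 0.11, limma adjusted p = 5.37e-09). Bhlhe40, a factor needed for cytokine production, rose by 4.40, and Irf4, which scales with receptor signal strength, by 1.98. Batf, Junb, Jund and Egr3 were not called.

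Against gp33 alone, 7 of the 22 factors were called lower and 2 higher, where 5.15% and 3.31% of all tested genes were. On the 6 libraries of that comparison alone, 6 of these 9 calls ended (Batf, Junb, Myc, Atf3, Nr4a1 and Nr4a2, limma adjusted p from 0.0624 to 0.142), and those of Irf8, Batf3 and Fosl1 were kept. Batf3 read 0.663, 0.656 and 0.564 with gp33 and IC87114 and 6.51, 7.42 and 6.76 with gp33 alone, with 0.0326, 0.0534 and 0 without peptide. It rose by 0.66 and was 2.28 below gp33 alone (SE 0.12, limma adjusted p = 5.12e-08). Irf8 rose by 1.92 and was 0.92 below it (limma adjusted p = 0.00147). Myc, the driver of growth in activated T cells, rose by 0.91 and was 0.67 below gp33 alone (limma adjusted p = 0.00292, and 0.0878 on those 6 libraries alone).

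Of the ERK feedback genes, 5 of 11 tested rose and 3 fell (median 0.12), near the shares of all tested genes, 39.6% and 33%. Spry1, an inhibitor of RAS-ERK signalling, rose from 0, 0.0116 and 0.311 to 8.42, 5.41 and 8.70 (2.93, limma adjusted p = 6.33e-10), and the ERK phosphatase Dusp5 rose by 2.01, while Ier5 fell by 2.06. Of the NF-kB subunits and feedback genes, 3 of 13 rose and 6 fell, with a median of -0.19 that was -0.41 without inhibitor replicate 2. Nfkb2 rose by 0.84, and the subunit gene Rela and the feedback inhibitor Tnfaip3 both fell by 0.85. Only 5 of the 18 listed calcium and NFAT genes were tested: Orai1, the calcium channel of T cells, rose by 1.05, and 4 others fell, among them Orai2 by 2.02.

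Of the PI3K, AKT and mTOR components, 11 of 34 listed were tested, of which 1 rose and 6 fell (median -0.56, and -0.33 without inhibitor replicate 2). Eif4ebp1, a translation repressor controlled by mTOR, rose from 1.84, 2.31 and 2.00 to 12.3, 14.2 and 11.1 (2.15, SE 0.09, limma adjusted p = 3.24e-11). The catalytic subunit of PI3K delta, Pik3cd, read 2.71, 2.88 and 2.77 without peptide and 1.55, 1.32 and 1.44 with gp33 and IC87114 (-0.63, limma adjusted p = 2.45e-06). With gp33 alone it was at 1.13, 1.10 and 1.07. Sgk1, a kinase downstream of PI3K, fell by 1.28.

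Cytokine and chemokine genes split into those that reached the level of gp33 alone and those that did not. In all, 9 of 20 tested were called higher and 4 lower with gp33 and IC87114 (median 0.50), against 14 and 4 with gp33 alone (median 1.23). Over all tested genes, 39.6% were higher and 33% lower with the inhibitor, and 42.1% and 31.6% with gp33 alone. Ccl4, a chemokine that draws T cells and monocytes, read 1.12, 2.41 and 2.09 without peptide, 205, 295 and 226 with gp33 and IC87114, and 209.9, 219 and 188 with gp33 alone. The 2 peptide groups overlapped, and the change of 6.41 (SE 0.68, limma adjusted p = 7.54e-07) was the largest rise among the genes that the naming rule selects. Its partner Ccl3 rose by 5.95. Il2 rose from 0.554, 0.853 and 0.471 to 4.09, 6.35 and 3.33 (1.75, limma adjusted p = 5.3e-07) and did not differ from gp33 alone past the threshold (-0.28, limma adjusted p = 0.34).

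The opposite was measured for Ifng, the gene of interferon gamma. It read 0.0124, 0.434 and 0.321 without peptide, 4.82, 2.97 and 1.83 with gp33 and IC87114, and 55.9, 70.2 and 49.0 with gp33 alone. The 3 inhibitor libraries all lay above the no-peptide ones. The change of 1.70 did not pass the test (SE 0.75, limma adjusted p = 0.0558), with an SE that includes the spread of groups not compared. The inhibitor level was 3.87 log2 below gp33 alone (SE 0.75, limma adjusted p = 0.00548). Lta, which encodes lymphotoxin alpha, read 12.04, 11.9 and 12.6 without peptide, 31.7, 20.4 and 24.6 with the inhibitor, and 170.1, 168 and 158 with gp33 alone. It rose by 0.99 (SE 0.22, limma adjusted p = 0.000841) and was 2.67 below gp33 alone (SE 0.22, limma adjusted p = 3.84e-06). Xcl1, a chemokine for cross-presenting dendritic cells, was not called against no peptide (0.61, limma adjusted p = 0.156) and was 3.11 below gp33 alone (limma adjusted p = 0.000113). The growth factor gene Il3, listed at 0 in the 3 libraries without peptide, read 0.150, 0.392 and 0.232 with the inhibitor and 2.99, 3.96 and 3.35 with gp33 alone. Lif, also listed at 0 without peptide, read 0.704, 0.466 and 0.552 and then 2.11, 1.91 and 2.13.

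Tnf and Ccl5 stood between these patterns. Tnf rose by 1.47 (limma adjusted p = 2.48e-05) and was 0.84 below gp33 alone (limma adjusted p = 0.0274), a call that ended without inhibitor replicate 2 (-0.62, limma adjusted p = 0.0863) and without any 1 of the gp33 libraries. Ccl5 fell from 25.1, 24.5 and 26.6 to 8.56, 11.8 and 6.74, and to 3.48, 4.91 and 1.91 with gp33 alone. The inhibitor group was the middle one (-1.43 against no peptide, limma adjusted p = 3.63e-05; 1.21 above gp33 alone, limma adjusted p = 0.0035, and 0.13 from these 6 libraries alone).

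**Figure D3:**
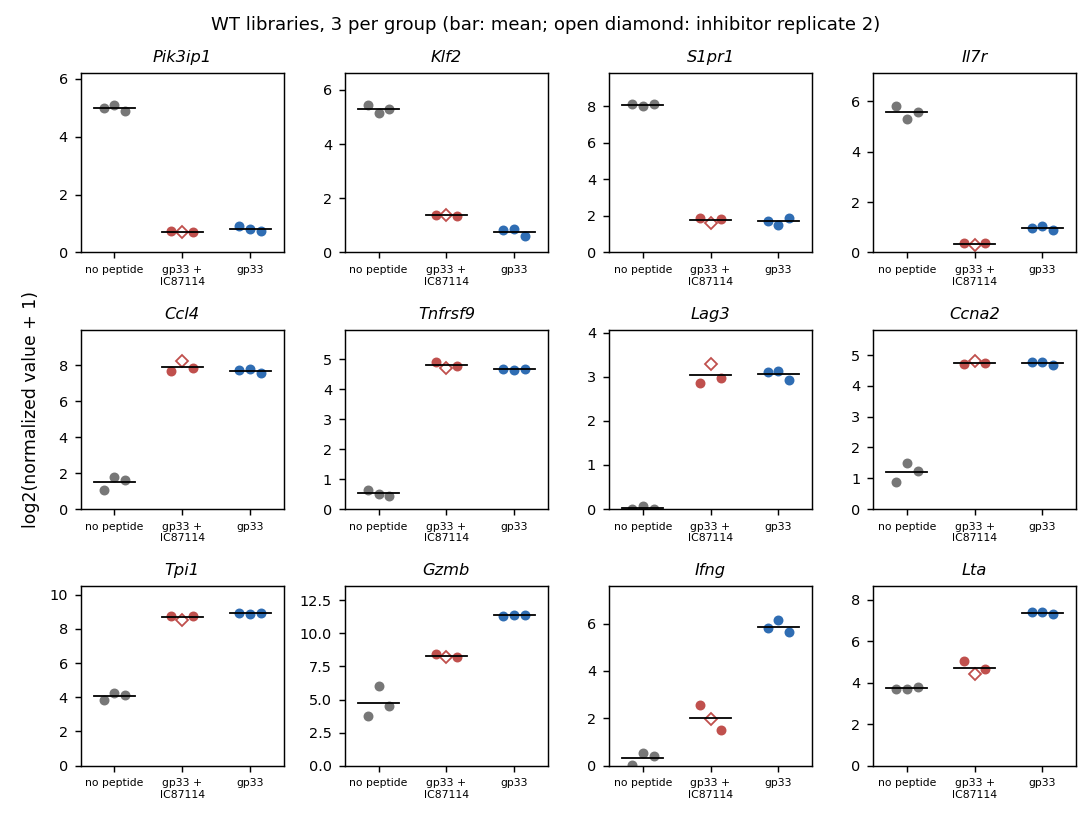
Expression of 12 genes as log2(value + 1) in the 9 WT libraries by treatment; points are libraries, bars are group means and the open diamond is inhibitor replicate 2. Pik3ip1, S1pr1, Ccl4, Tnfrsf9, Lag3, Ccna2 and Tpi1 lie at similar heights with gp33 with and without IC87114, while Gzmb, Ifng and Lta with the inhibitor lie between the other groups.

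The cytotoxic list had 5 of 14 tested members higher and 5 lower (median -0.13, and 0.35 with gp33 alone). These counts are near the shares of all tested genes, 39.6% and 33%. Gzmb, the granzyme B gene, read 12.5, 63.5 and 22.2 without peptide, 347, 290.0 and 296 with gp33 and IC87114, and 2566, 2739 and 2640.4 with gp33 alone. Each group lay above the one before it, with a rise of 3.51 over no peptide (SE 0.49, limma adjusted p = 1.48e-05) and a level 3.09 below gp33 alone (SE 0.49, limma adjusted p = 0.00124). Prf1, the gene of the pore-forming perforin, read 2.86, 3.97 and 5.18 without peptide, 1.55, 1.31 and 1.95 with the inhibitor, and 9.57, 9.49 and 8.36 with gp33 alone. It was below no peptide with the inhibitor (-0.92, SE 0.15, limma adjusted p = 5.91e-05) and above it with gp33 alone (1.04). Serpinb9, which protects the cell from its own granzyme B, rose by 2.11 and was 1.53 below gp33 alone (limma adjusted p = 4.66e-05). Srgn, the proteoglycan of cytotoxic granules, rose by 1.07 and was 0.63 above gp33 alone (limma adjusted p = 0.000184).

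Of the effector and memory transcription factors, 2 of 12 tested rose and 9 fell (median -0.67). Tbx21, the T-bet gene that drives effector differentiation, read 0.290, 0.128 and 0.113 without peptide, 0.996, 0.930 and 1.05 with the inhibitor, and 3.10, 2.89 and 2.49 with gp33 alone. It rose by 0.76 (SE 0.11, limma adjusted p = 1.31e-05) and was 0.94 below gp33 alone (SE 0.11, limma adjusted p = 6.53e-05). Id3 fell by 0.74 and Satb1, a chromatin organiser, by 1.16.

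All 10 tested genes of inhibitory receptors were called, 6 higher and 4 lower (median 0.65). Lag3 went from 0, 0.0514 and 0.00757 to 6.28, 8.88 and 6.86 with gp33 and IC87114, and stood at 7.60, 7.78 and 6.62 with gp33 alone. The peptide groups overlapped (3.02 against no peptide, SE 0.11, limma adjusted p = 1.26e-11; -0.01 against gp33 alone, limma adjusted p = 0.972). Tigit, Ctla4 and Pdcd1, the PD-1 gene, rose by 2.65, 2.64 and 2.26. Vsir, the checkpoint VISTA of resting T cells, fell by 2.15, and Btla, Cd274 and Cd96 fell by 0.87, 0.62 and 0.57.

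Cytokine receptors and JAK-STAT feedback genes were called higher in 8 and lower in 16 of 27 tested members (median -0.41). Cish, a feedback gene of STAT5, rose from 2.25, 2.37 and 0.947 to 25.4, 16.7 and 22.9 (3.01, limma adjusted p = 4.72e-09). The IL-12 receptor chain Il12rb2 read 0.00375, 0.0125 and 0 without peptide, 0.710, 0.685 and 0.606 with the inhibitor and 1.94, 1.83 and 1.58 with gp33 alone. It rose by 0.73 and was 0.74 below gp33 alone (SE 0.07, limma adjusted p = 9.29e-06). The shared chain Il2rb did likewise, rising by 0.94 and staying 0.67 below gp33 alone (limma adjusted p = 0.00268). Il2rg, the common gamma chain, fell less than with gp33 alone, by 0.84, and was 0.61 above it (limma adjusted p = 5.51e-05). Ifngr1, the interferon gamma receptor chain, fell by 2.63 and the feedback inhibitor Socs3 by 2.49.

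Genes of glucose use rose almost throughout: 18 of 19 tested members were called higher and 1 lower (median 1.56, and 1.59 with gp33 alone). Tpi1, triosephosphate isomerase, read 13.04, 18.2 and 16.7 without peptide, 437, 373 and 430.0 with gp33 and IC87114, and 487, 473 and 480.0 with gp33 alone. The inhibitor libraries were slightly below the gp33 libraries, a difference that did not pass the test (-0.22, SE 0.15, limma adjusted p = 0.384), and the rise was 4.62 (SE 0.15, limma adjusted p = 3.76e-12). The glucose transporter Slc2a1 rose by 1.50 and the lactate transporter Slc16a3 by 2.29. Gapdh, Ldha and Pgam1 rose by 3.12, 2.68 and 2.98, with the reservation that 3, 3 and 2 of their named processed pseudogenes are also in the table, so that reads could be split between copies. Pdk1, a kinase that turns off pyruvate dehydrogenase, fell by 1.55. Among the other hypoxia-inducible genes 9 of 13 rose and 3 fell (median 1.47), with the mitophagy gene Bnip3 at 3.04. Egln3, an oxygen sensor, rose by 1.58 and was 0.92 below gp33 alone (limma adjusted p = 5.11e-05). Ddit4, an inhibitor of mTOR, did not pass the test against no peptide (-0.03, limma adjusted p = 0.883) and was 0.96 below gp33 alone (limma adjusted p = 0.00389).

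Synthetic pathways rose alongside. All 22 called genes of nucleotide synthesis, of 24 tested, were higher (median 1.20), with Rrm2, a subunit of ribonucleotide reductase, going from 4.09, 7.29 and 4.83 to 121, 130.3 and 133 (4.36, SE 0.24, limma adjusted p = 5.84e-10). Of the cholesterol genes, 20 of 21 rose and 1 fell (median 1.20). Sqle, a rate-limiting enzyme of sterol synthesis, rose by 1.95 and Hmgcs1, whose promoter is printed above, from 4.60, 3.57 and 3.34 to 9.57, 9.12 and 10.1 (1.14, limma adjusted p = 7.44e-06). Srebf2, the factor that drives this pathway, was the member that fell, by 0.21, a call that ended when these 6 libraries were fitted alone. In fatty acid synthesis 6 of 8 rose and 2 fell (median 0.50): Scd2 rose by 2.48 and Scd1 fell by 0.92. Of the amino acid, one-carbon and ATF4 genes, 15 of 22 rose and 3 fell (median 0.43), with the one-carbon enzymes Psat1 and Mthfd2 at 2.63 and 2.43 and the stress factor Ddit3 at -2.08.

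Growth and division genes moved in the same direction. Ribosome biogenesis factors were higher in 31 of 32 tested members and lower in 1 (median 1.03), and without inhibitor replicate 2 in 28 and 1 (median 0.89). Nop2, a nucleolar methyltransferase shown above with its E-box, rose from 1.89, 2.00 and 1.51 to 5.36, 6.33 and 5.999 (1.30, limma adjusted p = 7.48e-08). Of 33 tested cell cycle genes, 31 rose and 1 fell (median 1.92). Ccna2, the cyclin of S phase and G2, read 0.833, 1.82 and 1.35 without peptide, 25.1, 27.3 and 26.0 with gp33 and IC87114, and 26.7, 26.4 and 24.6 with gp33 alone. The peptide groups overlapped (3.56 against no peptide, SE 0.19, limma adjusted p = 4.47e-10; 0.01 against gp33 alone, limma adjusted p = 0.978). Aurkb rose by 3.85, Cdk1 by 3.23 and the replication gene Mcm5 by 1.92. The one member called lower, Ccnd3 (-0.25), lost that call without inhibitor replicate 2 (limma adjusted p = 0.0979). Of 25 heat shock and chaperone genes 22 were higher and none lower (median 1.46, and 1.17 without inhibitor replicate 2), with Hsp90aa1 at 2.61.

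Of 18 tested p53 target genes, 6 rose and 6 fell (median 0.08), shares near those of all tested genes, and without inhibitor replicate 2 the counts were 5 and 5 (median 0.02). With gp33 alone 9 rose and 3 fell (median 0.32). Set against gp33 alone, 9 of the 18 were called lower with IC87114 and none higher, where 5.15% of all tested genes were lower. Of these calls, Mdm2, Pmaip1, Aen and Sesn2 ended on the 6 libraries of that comparison and Mdm2, Aen, Zmat3 and Sesn2 without inhibitor replicate 2, while Cdkn1a, Phlda3, Ccng1 and Plk2 were called in every setting run. Cdkn1a, the gene of the cyclin-dependent kinase inhibitor p21, read 0.192, 0.0995 and 0.0171 without peptide, 7.91, 7.13 and 7.42 with gp33 and IC87114, and 32.9, 28.0 and 29.5 with gp33 alone. The groups were apart (2.95 against no peptide, SE 0.15, limma adjusted p = 2.85e-10; -1.87 against gp33 alone, SE 0.15, limma adjusted p = 3.75e-06). Ccng1 read 16.1, 16.1 and 12.9 without peptide, 13.8, 13.5 and 13.8 with the inhibitor and 31.7, 28.4 and 27.3 with gp33 alone. It passed the test only against gp33 alone (-1.03, limma adjusted p = 0.000193; -0.12 against no peptide, limma adjusted p = 0.44). In the BCL2 family 6 of 11 tested rose and 3 fell (median 0.28), where 39.6% and 33% of all tested genes did. The survival genes Bcl2l1 and Bcl2a1b rose by 1.23 and 1.13, while Mcl1 fell by 1.69 and the pro-death gene Bbc3 by 0.75.

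Interferon-related lists were lower. Of 19 tested type I interferon response genes, 14 fell and 2 rose (median -0.63), with Ifit3 going from 13.97, 10.1 and 10.6 to 1.18, 1.30 and 1.11 (-2.50, limma adjusted p = 1.58e-09). Bst2 was the larger of the 2 rises, at 1.49. Of 28 interferon gamma and antigen presentation genes, 14 fell and 7 rose (median -0.39). The MHC class I heavy chain H2-K1 read 392, 394 and 378 without peptide, 184, 223 and 184 with gp33 and IC87114 and 116, 117 and 118 with gp33 alone. The inhibitor group lay between the other groups (-0.98, SE 0.07, limma adjusted p = 7.58e-09; 0.74 above gp33 alone, limma adjusted p = 1.1e-05). The GTPase Iigp1 rose by 2.52 and the peptide transporter Tap1 by 0.56. B cells express MHC class I too, and the B cell markers given above were also lower than without peptide. Between the inhibitor group and gp33 alone, 0 of the 11 tested B cell markers were called (median -0.07). Of the 9 MHC class II genes, 1 was called lower with the inhibitor (median -0.33). Mzb1 and Tnfrsf13c, B cell genes outside these lists, were also called lower, as given below. The part of B cell RNA in these values was not tested.

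Some of the genes furthest from no peptide have no place in the lists. Rpph1, the RNA subunit of RNase P, read 5.10, 13.01 and 7.50 without peptide, 495, 479 and 520.0 with gp33 and IC87114, and 265, 259 and 304 with gp33 alone. Its inhibitor libraries were above all gp33 libraries, but the difference of 0.85 did not pass the test (SE 0.38, limma adjusted p = 0.186). That SE also includes the spread of groups not compared. The metal-binding Mt1 rose by 5.57 and the histone genes H2bc12 and H2bc11 by 4.44 and 4.34. Dnph1, an enzyme that breaks down deoxynucleotides, went from 0.0620, 0.703 and 0.134 to 26.9, 27.0 and 26.7 (4.45, SE 0.20, limma adjusted p = 6.77e-11). Among the falls outside T cell lists, Apoe fell by 5.66 and Fam189b by 5.23. H2-Aa, Cd74, Cd79a, Ly6d and Jchain, at -5.00, -4.79, -4.51, -4.64 and -4.59, are genes of B cells and antigen-presenting cells. Jchain, of antibody-secreting cells, rested on the no-peptide libraries, at 127, 0.987 and 62.0, and its call ended without the first of these (limma adjusted p = 0.0551).

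For a few genes the inhibitor group lay past both other groups. They were selected for being called on the same side against no peptide and against gp33 alone, so their values describe the choice and carry no further test. Itm2a, a membrane protein of T cells, read 12.8, 11.1 and 14.4 without peptide, 38.3, 36.9 and 37.4 with gp33 and IC87114, and 20.5, 19.6 and 19.9 with gp33 alone. Dusp6, the cytoplasmic ERK phosphatase, read 2.90, 1.42 and 2.26, then 10.3, 7.17 and 9.46, then 3.34, 3.27 and 2.98. Its 3 inhibitor libraries each lay above all 6 other WT libraries. Ddt, a homologue of the cytokine MIF, was at 17.3, 23.0 and 20.98, then 201, 275 and 197, then 78.6, 84.9 and 90.6. The other rises were Ybx1, Gstt2 and Trappc6a, and in all 3, as in Ddt, inhibitor replicate 2 was the highest library. Without it, Ybx1 against gp33 alone went from 1.21 to 0.91 (limma adjusted p = 0.0547) and Trappc6a against no peptide from 0.77 to 0.48. Against gp33 alone, both calls also ended on the 6 libraries of that comparison (limma adjusted p = 0.132 for Ybx1 and 0.21 for Trappc6a), on the 9 WT libraries (0.0842 and 0.129) and without gp33 replicate 1 (0.0925 and 0.0625).

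The falls past both groups included granule genes. Nkg7, which governs the release of cytotoxic granules, read 1016, 1196 and 1082 without peptide, 202, 263 and 203 with gp33 and IC87114, and 751, 829.8 and 806 with gp33 alone. The inhibitor libraries were the lowest by a wide margin, at -2.30 against no peptide and -1.84 against gp33 alone. Cst7, the cystatin that inhibits granule cathepsins, read 18.6, 22.1 and 19.01, then 7.95, 8.51 and 8.63, then 17.4, 18.3 and 18.2. Its gp33 libraries lay just below the no-peptide ones and the inhibitor libraries far below both. Ly6c2, a surface protein of memory and effector CD8 T cells, was at -3.13 and -1.47, the second not called on the 6 libraries of that comparison alone (limma adjusted p = 0.0515), and Gpr183, a receptor for oxysterols that guides lymphocyte position, at -3.70 and -1.20. Mzb1 and Tnfrsf13c, genes of B cells, were at -4.28 and -1.15 and at -3.56 and -1.03.

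**Figure D4:**
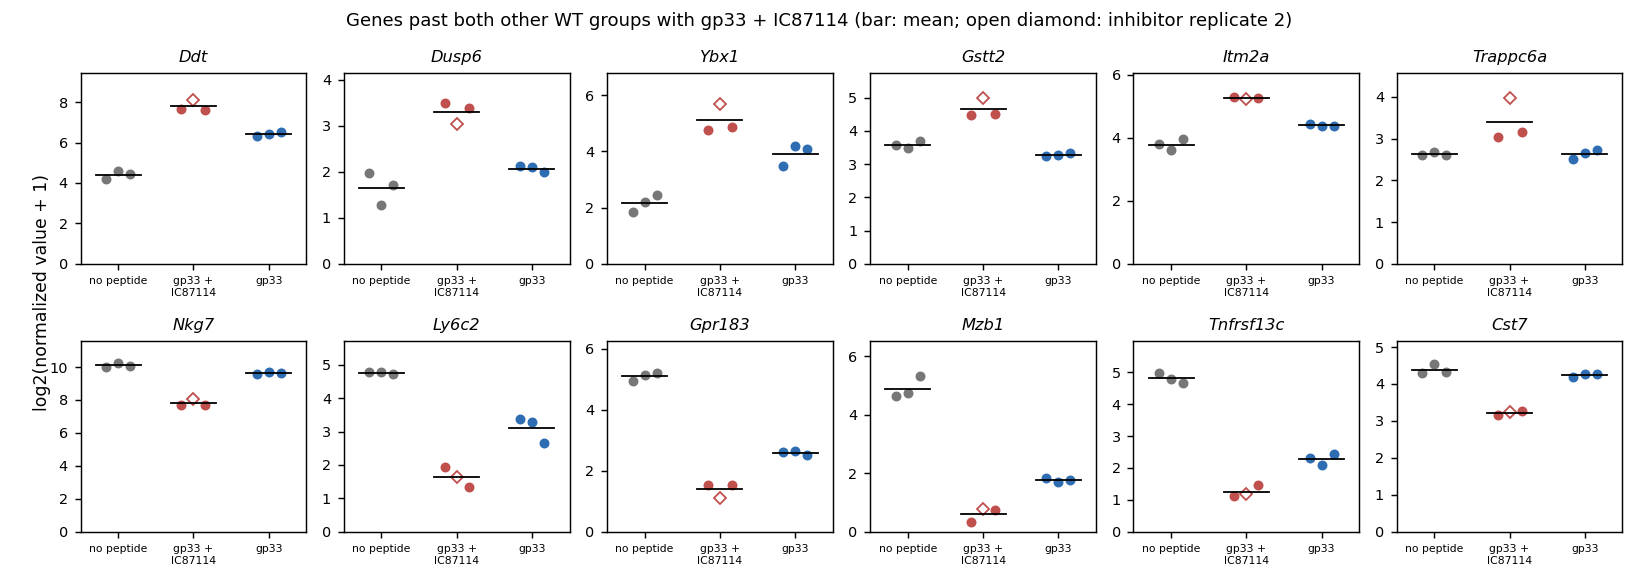
Expression as log2(value + 1) of the 12 genes selected because the inhibitor group was called past both other WT groups in the same direction; points are libraries, bars are group means and the open diamond is inhibitor replicate 2. Inhibitor replicate 2 is the highest point for Ddt, Ybx1, Gstt2 and Trappc6a and lies close to its group for Itm2a and Cst7.

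Inhibitor replicate 2 did not turn any call. Without it, 7715 genes (75.2%) were called, 4343 higher and 3372 lower. Of the main calls, 7048 were also made without it, all in the same direction, 391 were made only with it and 667 only without it, of which 148 and 443 were processed pseudogenes. Among the 501 called genes of the lists and named genes, 492 calls were kept and 9 ended, those of Ccnd3, Fas, Gbp7, Lamp1, Nop14, Pes1, Slc7a3, Tnfrsf10b and Wdr12, with limma adjusted p-values from 0.0504 to 0.11. Of 125 such genes called against gp33 alone, 19 calls ended.

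What set that library apart was unevenly spread over kinds of gene. It lay 1 log2 unit or more from the mean of replicates 1 and 3 for 1281 tested genes (12.5%), 559 higher and 722 lower, where the same count was 267 and 276 for replicates 1 and 3, each set against a mean that includes replicate 2, and 21 to 219 in the other 15 libraries of the series. Protein-coding genes had a median gap of -0.000829, with 180 of 5800 higher and 30 lower. Processed pseudogenes had a median gap of -0.34, with 314 of 3352 higher and 635 lower. The 72 tested protein-coding genes of ribosomal proteins were the reverse, with a median gap of 0.60 and 17 higher.

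Individual genes show the size of these gaps. Rpl7a, a ribosomal protein gene with 8 named pseudogenes in the table, read 8.80, 37.2 and 9.73 in the inhibitor group and its change moved from 1.52 to 0.89 without replicate 2. Aldoart1, a retrogene of aldolase, read 539, 131 and 498, and its change moved from 1.12 to 1.78. Mir8094, a microRNA gene, read 5.24, 105 and 7.84, and its change moved from 3.29 to 2.01. These genes were selected for being moved most by that library. The gene segments of the P14 receptor were higher in it too, 4 of 6 tested by 1 log2 unit or more. Summed over the 7 listed segments, they reached 301 to 822 in the inhibitor group and 655 to 728 without peptide. With that library 5 of the 6 tested segments were called lower, and without it 6. Some list counts moved by 1 without that library: amino acid, one-carbon and ATF4 genes went from 15 to 14 higher, the BCL2 family from 6 to 7 higher, and interferon gamma and antigen presentation genes from 14 to 13 lower. The NF-kB list went from 6 to 7 lower. CD8 markers were called lower in 11 and higher in 1 of 14 with that library and in 13 and 1 without it (median -1.05 and -1.32), and mitochondrial genes in 11 and 12 of 13.

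**Figure D5:**
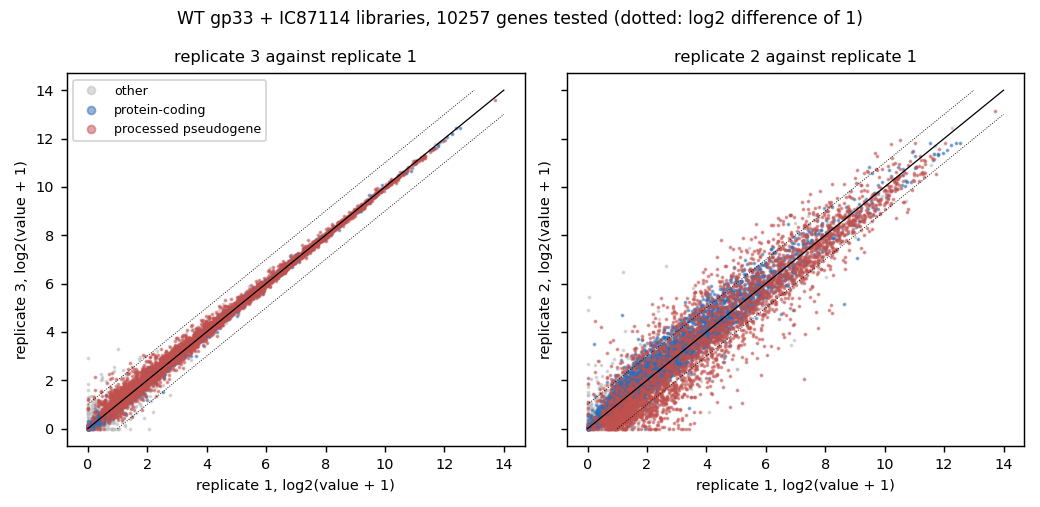
Values of the 10257 tested genes as log2(value + 1) in inhibitor replicate 3 (left) and replicate 2 (right) against replicate 1, coloured by gene type; the line marks equal values and the dotted lines a log2 difference of 1. In the left panel 50 genes lie outside the dotted lines and in the right panel 1329, many of them processed pseudogenes.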

How the data were processed

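Values are the authors' normalized expression values on a log2 scale, deposited as log2(value + 1) in a table whose name points to Partek. The base and the added 1 were taken from the values, while no aligner, counter or normalization is named (not given in the sources used here). Per the submitters' processing notes, builds are GRCm 38 and GRCm 39, with no role stated. The treatment text of the labels gives gp33 for every sample, and the titles and treatment fields were followed instead.

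Genes with a value of at least 1 in 3 or more of the 18 libraries were kept. The 6 group means were fitted with limma 3.58.1 (trend and robust variance, statmod 1.5.0, R 4.3.3) on all 18 libraries, which leave 12 residual degrees of freedom, and adjusted by Benjamini-Hochberg over all 10257 genes at 0.05. The fit was tested on simulated data. Same-numbered libraries did not deviate together in every pair, so replicates were not paired. Members and gene lists were chosen with earlier results of these data known. Named genes are Pik3ip1, the 12 largest rises and 12 largest falls among called, non-overlapping genes with a mean log2 of at least 2 (no predicted genes, pseudogenes or receptor segments), the 4 smallest p-values of each list, 6 genes each way past both other WT groups, and the 8 most moved by inhibitor replicate 2. List members outside the rule are named by their role or because they go against their list, after their values were seen. Some genes that the rule selects are not reported here.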

Additional observations from a re-analysis of the deposited data

Results flagged for a closer look

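For 8 of the 25 genes named as Pik3ip1 or for the size of their change, the response to gp33 with IC87114 differed between libraries labelled WT and KO by limma's test of the difference itself. Apart from Pik3ip1, these genes were chosen for the size of their change in the same WT libraries. That choice favours a greater change in WT, so the count of 8 cannot be read against the share of all tested genes. Over all tested genes 723 (7.05%) passed that test, 416 with the higher change in WT and 307 with the lower, and a rescaling on protein-coding genes alone moved the share with the higher change from 57.5% to 46.8%. The rises of 4 genes were greater in WT. Tpi1 changed by 4.62 in WT and 2.35 in KO, a difference of 2.27 (SE 0.22, limma adjusted p = 2.14e-05). Mt1 changed by 5.57 and 3.50, a difference of 2.07 (SE 0.32, limma adjusted p = 0.000865). The difference was 1.63 for Bhlhe40 (SE 0.29, limma adjusted p = 0.00243) and 1.52 for Tnfrsf9 (SE 0.27, limma adjusted p = 0.00227).

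The falls differed in both directions. S1pr1 fell further in WT, by 6.31 against 5.55 in KO (-0.76, SE 0.16, limma adjusted p = 0.00872), and so did Il7r, by 5.21 against 4.23 (-0.99, SE 0.17, limma adjusted p = 0.00153). Cd7 fell less in WT than in KO, where it fell by 7.48 (0.98, SE 0.15, limma adjusted p = 0.000879), and Ltb by 4.90 against 6.06 (1.16, SE 0.16, limma adjusted p = 0.000364). The libraries labelled KO had more Pik3ip1 RNA than those labelled WT, so the direction of these differences holds for the labels.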

How the results depend on the processing

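In the 3 comparisons among WT groups, no call of a list member or named gene changed direction under the alternatives run; for the genotype difference only the counts were compared. Against no peptide, the 7439 calls of gp33 with IC87114 became 4257 with the filter 5 times as high (5496 genes tested), 11736 without a filter beyond values above 0 (23208 tested) and 4597 on protein-coding genes alone (5815 tested). Those of gp33 alone became 4267, 12255 and 4594, and the genotype difference gave 433 and 1175 under the first and second of these. Fewer or more genes were tested there. The inhibitor group against gp33 alone gave 263 on the 6 libraries compared and 326 on the 9 WT libraries. Leaving out 1 library at a time gave 7107 to 7715, 7066 to 7356, 433 to 995 and 510 to 808 calls in these 4 comparisons. With the replicate block the counts were 7420, 7571, 649 and 615, and no named gene lost its call against no peptide. Deviations from the group means of same-numbered no-peptide and inhibitor libraries correlated at 0.049, 0.016 and 0.0021. Those of gp33 and inhibitor libraries correlated at 0.221, 0.020 and -0.0093, and those of no-peptide and gp33 libraries at 0.121, 0.0091 and 0.079. Of 165 named genes, 7 lost the call on the 6 libraries alone, 6 of them selected for inhibitor replicate 2, and 3 on the 9 WT libraries. Most named genes were chosen for a small p or a large change, which favours keeping their calls. Among the 501 called genes of the lists and named genes, 44 and 17 calls against no peptide ended in these fits. Against gp33 alone, 70 and 58 of 125 such calls ended on the 6 and the 9 WT libraries. Depth is unknown, 3 libraries a group limit precision, and library makeup moves with treatment.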
